A study of Mus musculus with 34 samples.

Results

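The miR-183-96-182 cluster is a group of 3 microRNA (miRNA) hairpins that lie close together and are transcribed as 1 unit. Each hairpin is cut into a 5p and a 3p arm, which gives the 6 mature members described here: mmu-miR-182-5p, mmu-miR-182-3p, mmu-miR-96-5p, mmu-miR-96-3p, mmu-miR-183-5p and mmu-miR-183-3p. They were chosen by name, and all 6 had reads in every small RNA library, out of 1525 mature miRNA names with a read in any. The small RNA was sequenced from wild-type CAD cells, a mouse neuronal line of catecholaminergic origin that stops dividing and grows processes when serum is taken away. One group had been without fetal bovine serum for 4 days and the other was kept in medium with 10% serum, with 3 libraries in each. Libraries of cells labelled mir-138 DKO are polyA RNA only and were not used for miRNA levels. Whether the replicates are separate cultures is not given in the labels, and p-values therefore cover only the spread among the libraries, which may be technical.

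Mature miRNAs guide Argonaute proteins to messenger RNAs, mainly through bases 2 to 8 of the miRNA, the seed. Of the 2 arms cut from a hairpin, the one mostly kept by Argonaute is called the guide and the other the passenger. In this cluster the 5p arm is the guide of each hairpin. The cluster is known from sensory organs, where photoreceptors, hair cells and sensory neurons hold much of it, and changes in the miR-96 seed cause hearing loss in mice and people. Reported targets include the transcription factors Foxo1 and Foxo3 and the pigment cell regulator Mitf.

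The mature sequences follow, as given by RefSeq for mouse build GRCm38.p6, because the levels below differ between arms of the same hairpin. Capitals mark the seed, bases 2 to 8 counted from the 5′ end.
mmu-miR-182-5p: uUUGGCAAugguagaacucacaccg
mmu-miR-96-5p: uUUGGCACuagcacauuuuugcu
mmu-miR-183-5p: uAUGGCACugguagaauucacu
mmu-miR-182-3p: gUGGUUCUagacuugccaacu
mmu-miR-96-3p: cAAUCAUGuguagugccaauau
mmu-miR-183-3p: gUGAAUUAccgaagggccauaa

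Of the 3 guides, mmu-miR-182-5p and mmu-miR-183-5p were the most alike in sequence. Counted from the 5′ end without gaps, mmu-miR-182-5p and mmu-miR-183-5p had 18 of 22 bases in common and differed by U2A, A8C, C17U and A22U. mmu-miR-96-5p shared 12 of 23 bases with mmu-miR-182-5p and 13 of 22 with mmu-miR-183-5p. Bases 2 to 7, UUGGCA, were the same in mmu-miR-182-5p and mmu-miR-96-5p and in no other of the 1287 measured names that matched a RefSeq sequence. Bases 3 to 8, UGGCAC, were the same in mmu-miR-96-5p and mmu-miR-183-5p and again in no other. All 3 guides held UGGCA at bases 3 to 7, which among the matched names was found in 1 more, mmu-miR-7022-5p. No other matched name had the full seed of any of the 6 arms. The passengers shared 7 of 21 or 22 bases in each pairing. The nearest other measured sequence to any arm was 7 to 9 edits away. For mmu-miR-182-5p and mmu-miR-183-5p it was the other of the pair, with 7. For mmu-miR-96-5p a sequence outside the cluster, mmu-miR-148a-3p, was as near as any, with 8.

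The hairpins, again from RefSeq, show where each pair of arms comes from. Capitals mark the 5p arm and then the 3p arm.
Mir183: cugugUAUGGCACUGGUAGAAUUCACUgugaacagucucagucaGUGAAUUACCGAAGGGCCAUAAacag
Mir96: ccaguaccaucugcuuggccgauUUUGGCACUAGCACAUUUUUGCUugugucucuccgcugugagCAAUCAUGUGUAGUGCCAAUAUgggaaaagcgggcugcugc
Mir182: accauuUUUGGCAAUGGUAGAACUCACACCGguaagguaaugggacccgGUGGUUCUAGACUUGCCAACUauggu
All 3 lie on the minus strand of chromosome 6 in build GRCm38.p6, Mir183 at chr6:30169668-30169737, Mir96 at chr6:30169446-30169551 and Mir182 at chr6:30165918-30165992. Mir183 and Mir96 are 116 bases apart, and 3453 bases separate Mir96 from Mir182. In RefSeq they lie inside the non-coding gene Mirc35hg. Each 5p arm begins with U, whereas the 3p arms begin with G or, in mmu-miR-96-3p, with C.

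Reads assigned to miRNAs numbered 2106388 to 2763553 in the 4-day libraries and 1423978 to 1729526 in the serum libraries, and reads assigned to no miRNA made up 34.1 to 40% of the 4-day files and 46.1 to 49.2% of the serum files. Serum replicate 2 stood apart, with correlations across miRNAs of 0.952 and 0.877 with the other serum libraries on log2 CPM (counts scaled to 1000000 reads), against 0.966 between those 2 and 0.991 to 0.995 among 4-day libraries. Of 20 miRNAs that mark muscle, liver, blood, endothelium or epithelium, all had reads in some library. Of the 13 tested, 5 were higher and 1 lower at 4 days. Over all 715 miRNAs tested, 19.6% were higher and 16.2% lower. Together the 20 held 2769 to 2884 CPM at 4 days and 1719 to 1902 CPM in serum. The largest single part was mmu-miR-126a-3p, with 1916 to 2098 CPM at 4 days and 796 to 1178 CPM in serum. Some of the 20 spread widely in serum, such as mmu-miR-206-3p (0 to 144 CPM, against 9.02 to 15.6 CPM at 4 days). Others did not, such as mmu-miR-1a-3p (67 to 86.7 CPM in serum and 107 to 133 CPM at 4 days). The part of these 20 in the results was not tested. In RNA from a whole culture fewer cells of a type and less RNA per cell cannot be told apart. Of 5 miRNAs of neurons and neuroendocrine cells, all were present and tested. Where 35.8% of all 715 miRNAs passed the threshold, 1 of these 5 did, higher at 4 days. It was mmu-miR-375-3p, with 160 to 235 CPM at 4 days and 49.5 to 106 CPM in serum (log2 fold change 1.69, edgeR adjusted p = 0.00588). Together the 5 held 25422 to 34396 CPM at 4 days and 40016 to 52113 CPM in serum, mostly mmu-miR-7a-5p, which did not pass (-0.41, edgeR adjusted p = 0.116). CPM of the marker miRNAs in this paragraph are per library total. The fold changes use the TMM scaling explained below, so the 2 are on unlike scales.

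The cluster made up a larger part of the miRNA pool after serum withdrawal. Its 6 arms together took 5.14, 4.85 and 4.89% of all miRNA reads in the 4-day libraries, against 2.85, 2.67 and 2.63% in the serum libraries. The 4-day libraries were thus all higher, with a mean of 4.96 ± 0.155% against 2.72 ± 0.117% in serum (SD, n = 3 each). Nearly all of this was mmu-miR-182-5p, the guide arm of Mir182, which held 92 to 92.5% of the cluster's reads at 4 days and 89.1 to 94.1% in serum. The 3 passengers together held 0.357 to 0.37% of the cluster's reads at 4 days, less than the 0.666 to 1.04% they held in each serum library.

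mmu-miR-182-5p was among the most abundant miRNAs of these cells. It took 4.76, 4.47 and 4.51% of miRNA reads at 4 days and 2.54, 2.51 and 2.35% in serum, and the exact 95% interval of each share was within 0.03 percentage points of it. By reads it ranked 2 among all miRNAs in every 4-day library, behind mmu-let-7c-5p in the pooled counts, and 5 in every serum library. mmu-miR-183-5p, the guide of Mir183, took 0.216, 0.225 and 0.215% at 4 days and 0.172, 0.0768 and 0.163% in serum. Its rank was 84 to 95 at 4 days and 108 to 166 in serum, the lowest place being that of serum replicate 2. mmu-miR-96-5p, the guide of Mir96, took 0.149, 0.145 and 0.147% at 4 days and 0.111, 0.0617 and 0.0885% in serum. It ranked 125 to 126 at 4 days and 148 to 178 in serum, so the order of the guides was mmu-miR-182-5p, mmu-miR-183-5p and mmu-miR-96-5p in all 6 libraries. For each of the 6 arms the shares of the groups did not overlap, and the two-sided exact permutation test gave p = 0.1, which is the smallest that 3 against 3 libraries allow. How many of all miRNAs had shares without overlap was not counted. For the scaled levels given below, groups did not overlap for 51.9% of the miRNAs tested. Intervals cover counting error only, since the reads carry no stated molecular identifiers.

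All 3 guides rose, mmu-miR-182-5p 2.24-fold, mmu-miR-96-5p 2.05-fold and mmu-miR-183-5p 1.94-fold. Levels are given as CPM scaled by TMM, which sets the libraries to each other by the bulk of miRNAs. mmu-miR-182-5p stood at 52929, 49110 and 49184 CPM at 4 days, against 22474, 23688 and 21324 CPM in serum. The groups lay far apart, and the log2 fold change was 1.16 ± 0.07 (SE, adjusted p = 0.000107 by edgeR's quasi-likelihood test with Benjamini-Hochberg adjustment). mmu-miR-96-5p stood at 1659, 1589 and 1600 CPM at 4 days, against 982, 582 and 802 CPM in serum. Its serum libraries were spread more widely, and its log2 fold change was 1.03 ± 0.19 (SE, edgeR adjusted p = 0.00609). mmu-miR-183-5p stood at 2408, 2473 and 2344 CPM at 4 days, against 1521, 724 and 1478 CPM in serum. Serum replicate 2 was the lowest library, and the log2 fold change was 0.96 ± 0.27 (SE, edgeR adjusted p = 0.033). Over all 715 miRNAs tested, 35.8% passed the false discovery rate of 0.05, and 19.6% did so in the upward direction.

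The rise of mmu-miR-182-5p and of mmu-miR-96-5p passed under all 13 alternatives, with log2 fold changes of 0.89 to 1.91 and 0.75 to 1.71. That of mmu-miR-183-5p passed under 8 of the 13, and in 2 of the 6 fits that left out 1 library. It was 1.10 without serum replicate 1 and did not pass (edgeR adjusted p = 0.0697). It stayed at 0.94, 0.96 and 1.03 without 4-day replicates 1, 2 and 3 but did not pass (adjusted p = 0.105, 0.115 and 0.0863). Without serum replicate 3 it was 1.12 and passed (adjusted p = 0.039). Without serum replicate 2 it was smaller, 0.66, and passed (adjusted p = 0.000108), and with library totals alone it was 0.67 (adjusted p = 0.103).

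Of the 3 passengers, 1 passed the threshold, mmu-miR-96-3p. mmu-miR-182-3p had 101, 134 and 119 reads at 4 days and 147, 107 and 125 reads in serum, or 53.4, 58.9 and 46.9 CPM against 75.2, 70.8 and 73.7 CPM. All 4-day libraries were lower on the TMM scale, yet the log2 fold change of -0.47 ± 0.19 did not pass (SE, edgeR adjusted p = 0.0983). mmu-miR-96-3p fell, to 57, 52.7 and 54.4 CPM at 4 days, against 94.6, 70.2 and 107 CPM in serum. Its log2 fold change was -0.73 ± 0.21 (SE, edgeR adjusted p = 0.0354), and 16.2% of the miRNAs tested passed the threshold in the downward direction. mmu-miR-183-3p had 94, 86.1 and 94.6 CPM at 4 days, against 66.5, 26.5 and 66.6 CPM in serum. It was higher in each 4-day library than in any serum library, with a log2 fold change of 0.78 ± 0.35 that did not pass (SE, edgeR adjusted p = 0.13). Groups that did not overlap, as was the case for all 6 arms, were found for 51.9% of the miRNAs tested.

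**Figure D1:**
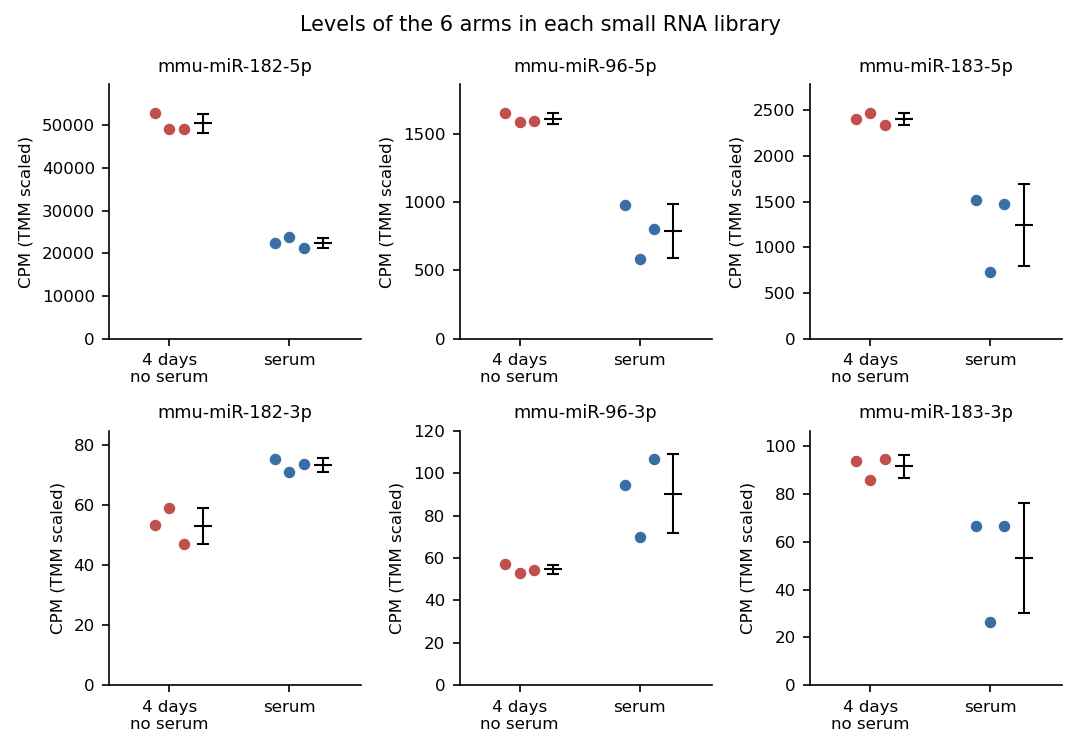
Levels of the 6 arms in CPM after TMM scaling (vertical axes, each from 0), with the 3 libraries at 4 days left of the 3 in serum and bars for mean ± SD. The guides (top) and mmu-miR-183-3p lie higher at 4 days than in serum, and mmu-miR-96-3p and mmu-miR-182-3p lower, the last of which turns to 0.26 (log2) when scaled by the names that are not mouse.

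Calls on the passengers rest on few reads and on the libraries used. The fall of mmu-miR-96-3p lost its call without serum replicate 1 or 3 (edgeR adjusted p = 0.129 and 0.147) and without 4-day replicate 1, 2 or 3 (adjusted p = 0.105, 0.156 and 0.141), at log2 fold changes of -0.77 to -0.56. Without serum replicate 2, mmu-miR-182-3p stood at -0.52 (adjusted p = 0.0212), mmu-miR-96-3p at -0.91 (adjusted p = 0.000658) and mmu-miR-183-3p at 0.43 (adjusted p = 0.0272), so that all 6 arms passed in a fit in which 52.6% of the 759 miRNAs tested did. Scaling also mattered for the passengers. Library totals alone put mmu-miR-182-3p at -0.74 (adjusted p = 0.0238), and scaling by the reads of the names that are not mouse, described in the closing part, put it at 0.26 (adjusted p = 0.564) and mmu-miR-96-3p at -0.033 (adjusted p = 0.958).

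Guide to passenger ratios are taken within a library, so that depth and scaling cancel. For miR-182 there were 992, 834 and 1048 reads of the 5p arm per read of the 3p arm at 4 days, against 299, 334 and 289 in serum. The lowest exact 95% interval at 4 days began at 704 and the highest in serum ended at 408. For miR-96 the ratio was 29.1, 30.1 and 29.4 at 4 days, against 10.4, 8.29 and 7.51 in serum. Here too the groups stood clear of each other, with intervals from 24 upward at 4 days and up to 12.1 in serum. For miR-183 the ratio was 25.6, 28.7 and 24.8 at 4 days, against 22.9, 27.4 and 22.2 in serum, and the groups overlapped.

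**Figure D2:**
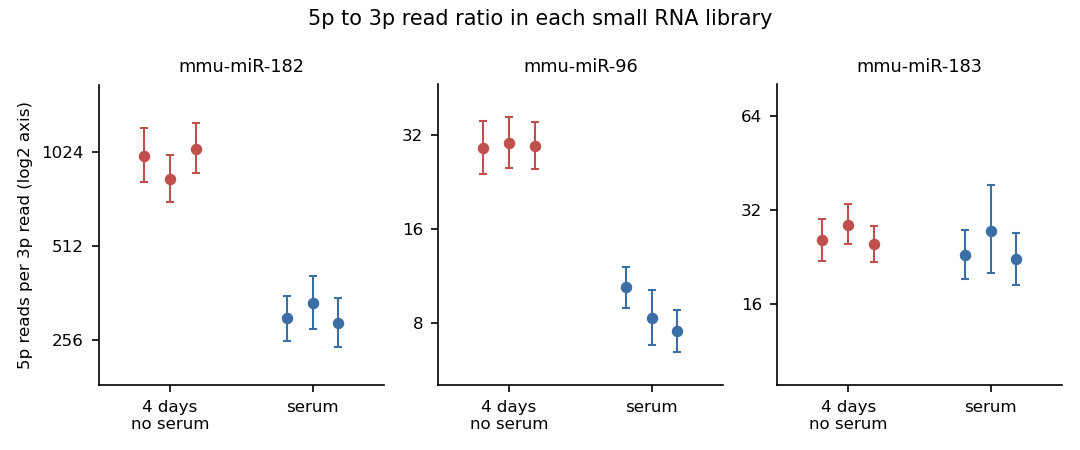
Reads of the 5p arm per read of the 3p arm (vertical log2 axes that span the same fold in each panel) in the 3 libraries at 4 days, left, and the 3 in serum, right, with exact 95% intervals for counting error. The ratio lies between 834 and 1048 at 4 days and between 289 and 334 in serum for miR-182, is also higher at 4 days for miR-96, and overlaps between groups for miR-183.

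The ratio rose in 2 of the 3 hairpins. The change on the log2 scale was 1.63 ± 0.15 for miR-182 (SE, adjusted p = 0.000495, edgeR's quasi-likelihood test of arm by time within libraries) and 1.77 ± 0.17 for miR-96 (SE, edgeR adjusted p = 0.000615), which are 3.1-fold and 3.41-fold. For miR-183 it was 0.15 ± 0.16 (SE, edgeR adjusted p = 0.515), with a 95% interval of -0.213 to 0.51 that lies below those of miR-182 (1.29 to 1.97) and miR-96 (1.37 to 2.17). Both rises held in all 10 alternatives, at 1.57 to 1.73 for miR-182 and 1.66 to 1.91 for miR-96, and miR-183 passed in none, at 0.08 to 0.22. Set directly against miR-183 within each library, the ratio of miR-182 was 36.7 ± 6.87 times that of miR-183 at 4 days and 12.8 ± 0.481 times in serum (SD, n = 3 each). The ratio of miR-96 was 1.12 ± 0.0694 times that of miR-183 at 4 days and 0.365 ± 0.0787 times in serum (SD, n = 3 each). Each of these differences reached the smallest p of the exact permutation test, 0.1, or 0.15 when adjusted over the 3 pairs of hairpins, while miR-96 against miR-182 gave p = 0.5 by the same exact test. A ratio of reads need not be a ratio of molecules, as adaptor ligation favours some ends over others, and this was not measured here.

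The changes in ratio were also set among those of all hairpins. Of 212 hairpins with both arms tested, 62 changed in ratio (29.2%), with 35 higher (16.5%) and 27 lower, and the median change was 0.015 with quartiles of -0.382 and 0.582. By p, miR-182 and miR-96 came at places 2 and 3, behind miR-15b, and miR-183 at 152. By the size of the rise, miR-96 was at place 6, miR-182 at 9 and miR-183 at 93. By the ratio itself, averaged over all libraries, miR-182 was at place 4 of 212 in favour of the 5p arm, miR-183 at 37 and miR-96 at 53. A 5p arm that rose beside a 3p arm that fell, each past the threshold, was found for 4 hairpins: miR-96, miR-195a, miR-30d and miR-669c, the others being named after their values were seen. The largest rises outside the cluster with both arms at 50 CPM or more were of miR-15b (1.90), miR-185 (1.47) and miR-466m (1.31), and the largest falls of miR-465d (-1.94), miR-23a (-1.64) and miR-27a (-1.50). The miR-466, miR-465 and miR-669 hairpins belong to families of near-identical copies, so their reads are uncertain.

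**Figure D3:**
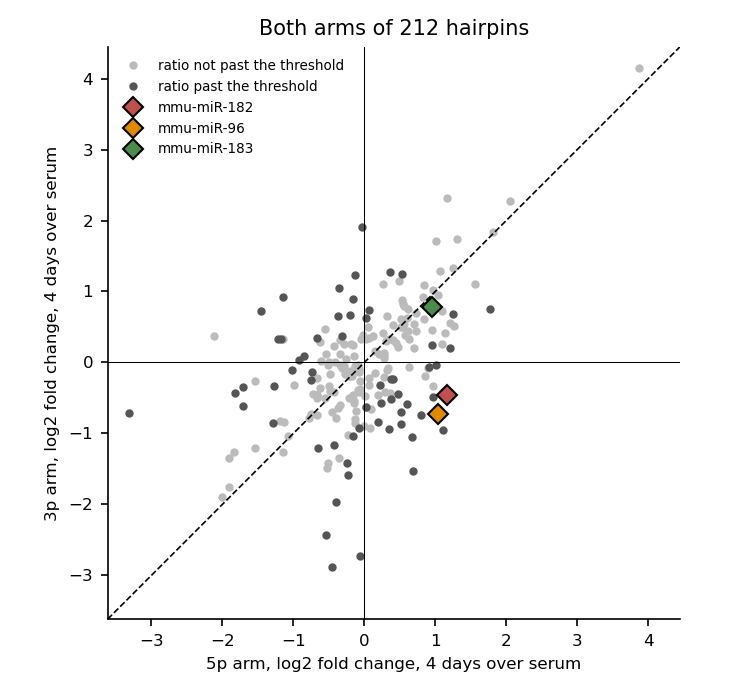
Log2 fold change at 4 days over serum of the 5p arm (horizontal) and of the 3p arm (vertical) for each of 212 hairpins, with the diagonal where both arms change alike and dark points where the ratio passed the threshold. miR-183 (0.96 and 0.78) lies near the diagonal, while miR-182 (1.16 and -0.47) and miR-96 (1.03 and -0.73) lie below the horizontal line.

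The proportions among guides and among passengers were also read within libraries. mmu-miR-182-5p had 22, 19.9 and 21 reads per read of mmu-miR-183-5p at 4 days, against 14.8, 32.7 and 14.4 in serum. The 4-day values fall between those of serum replicate 2 and of the other serum libraries (exact permutation p = 1). Per read of mmu-miR-96-5p it had 31.9, 30.9 and 30.7 reads at 4 days, against 22.9, 40.7 and 26.6 in serum (exact permutation p = 0.7). The passenger mmu-miR-183-3p had 1.65, 1.63 and 1.74 reads per read of mmu-miR-96-3p at 4 days, against 0.703, 0.377 and 0.624 in serum. Thus mmu-miR-183-3p was the more abundant of these 2 passengers in each 4-day library and the less abundant in each serum library (exact permutation p = 0.1, or 0.5 adjusted over 5 such ratios). mmu-miR-182-3p and mmu-miR-96-3p stayed close, at 0.935, 1.12 and 0.862 at 4 days and 0.795, 1.01 and 0.691 in serum.

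Across the 6 libraries, the log2 CPM of mmu-miR-96-5p had a Pearson r of 0.905 with mmu-miR-182-5p, that of mmu-miR-183-5p 0.788 and that of mmu-miR-183-3p 0.666. The other passengers ran the opposite way, at -0.922 for mmu-miR-182-3p and -0.912 for mmu-miR-96-3p. Of 411 other miRNAs with a mean of at least 50 CPM, the 5 most like mmu-miR-182-5p by this measure were mmu-miR-152-3p, mmu-miR-140-3p, mmu-miR-488-3p, mmu-miR-26a-5p and mmu-miR-195a-5p, each at an r of 0.994 or 0.995, and 79 had an r above 0.9. These values describe 6 libraries in 2 groups, which share their depth and scaling. All 5 rose, by log2 fold changes between 0.79 for mmu-miR-140-3p and 1.74 for mmu-miR-152-3p. Since they were chosen for likeness to a miRNA that rose in the same libraries, this is not a separate result.

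Messenger RNAs reported as targets of these miRNAs were read in polyA RNA-seq of wild-type cells 4 days without serum and in serum, with 3 libraries each, from another experiment of the series. The titles call the 4-day libraries WT whereas mir-138 DKO stands in the genotype field, and the titles were followed. If the field were right, genotype and serum withdrawal could not be told apart in these mRNA values. Tubb3, the neuronal beta-tubulin, was present in all 6 libraries (623 to 782 CPM at 4 days and 510 to 523 CPM in serum). Dbh, which makes noradrenaline, had 4.45 to 7.01 CPM at 4 days and 51.1 to 59.5 CPM in serum, and Th, the first enzyme of that pathway, at most 1.2 CPM and 1.71 CPM. Of 30 listed genes 26 were tested, and 11 were higher at 4 days, 8 lower and 7 not past the threshold. The median log2 fold change over the list was 0.185, against 0.0434 for all 13283 genes, of which 70.9% passed (36.2% higher and 34.7% lower), so a count of 19 of 26 is near the share of all genes. The list is drawn from earlier work, in good part on human cells.

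Foxo3, a FoxO transcription factor reported as a miR-182 target, had 198, 237 and 246 CPM at 4 days, against 29.7, 29.1 and 32.4 CPM in serum. This was the largest change on the list, a log2 fold change of 2.90 ± 0.10 (SE, edgeR adjusted p = 2.33e-11). Pdcd4, an inhibitor of translation reported as a miR-183 target, had 129, 130 and 123 CPM at 4 days, against 18.8, 17.7 and 16.8 CPM in serum (2.84 ± 0.09, SE). Also higher were Psen2, a presenilin of the gamma-secretase (1.84), Cacna2d2, a calcium channel subunit (1.53), Mtss1, an actin-binding protein (1.51), and Irs1, the insulin receptor adaptor (1.49). Itgb1, an integrin beta chain, rose by 0.75, Adcy6, an adenylate cyclase, by 0.52 and Cttn, the actin regulator cortactin, by 0.39. Myrip, which links Rab27a to myosin motors, fell to 49.2, 40.1 and 39.1 CPM at 4 days, against 90.3, 87.9 and 110 CPM in serum, a log2 fold change of -1.17. Egr1, an immediate-early factor, stood at -0.71, Rev1, a translesion polymerase, at -0.62 and Ryk, a Wnt receptor, at -0.57, all past the threshold. Foxo1 was near the limit of detection, with 0.856, 0.614 and 1.65 CPM at 4 days and 0.229, 0.82 and 0.345 CPM in serum, and did not pass (1.15 ± 0.67, SE, edgeR adjusted p = 0.143). Mitf had 0.471, 2.74 and 3.81 CPM at 4 days and 2.88, 2.65 and 3.27 CPM in serum and did not pass (-0.32 ± 0.55, SE, edgeR adjusted p = 0.623). Aqp5 had 5 reads and Cacna2d1 had 9 over the 6 libraries, Slc1a1 and Htr1b had 0, and these 4 were not tested.

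**Figure D4:**
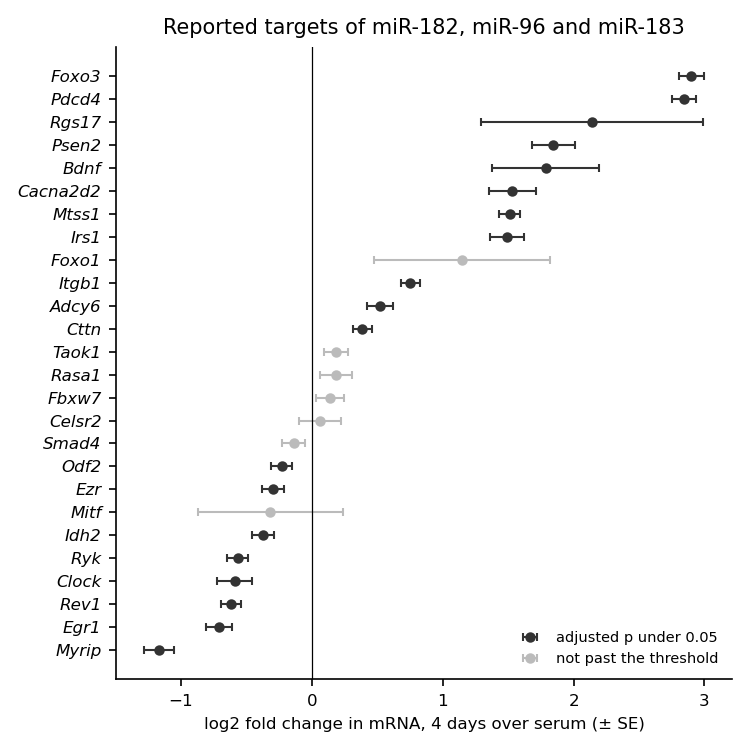
Log2 fold change in mRNA at 4 days over serum (horizontal, ± SE, 3 libraries each) of the 26 tested genes reported as targets, in order of size. The values run from -1.17 for Myrip to 2.90 for Foxo3, with 11 dark points above 0 and 8 below.

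The polyA libraries did not show the hairpin genes themselves. By their titles, the 28 RNA-seq libraries are of wild-type or DKO cells in serum or 1, 2 or 4 days without it. Some of the DKO cells had been given a miR-138 mimic, a miR-137 mimic or pUC19 DNA. Over all 28 libraries Mir182 and Mir96 had 1 read each, in 1 library each of DKO cells in serum, and Mir183 had 0. The read of Mir182 was on the opposite strand and came from cells given the miR-137 mimic. These counts cover the hairpins alone, and the host gene Mirc35hg was not analysed here, so the primary transcript was not compared between groups.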

How the data were processed

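Per the labels, small RNA libraries were made from 1000 ng of total RNA with an adaptor-ligation kit. The deposited files hold raw read counts per mature miRNA, and the submitters' processing notes name cutadapt, BWA and STAR and the build mm9, without versions or roles. Reads assigned to no miRNA were left out of totals. For RNA-seq the deposited STAR counts of the transcript strand were used (32620 of 37310 gene IDs, or 87.4%, matched a symbol, and the 6 libraries held 19900317 to 28631969 reads).

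MiRNAs and genes were kept by filterByExpr (minimum count 10, total 15), scaled by TMM and compared by edgeR 4.0.16's two-sided quasi-likelihood test in R 4.3.3, at a false discovery rate of 0.05. Standard errors were taken from the fold change and F statistic. For ratios, the counts of both arms of each hairpin were fitted with 1 term per library, 1 for the arm and 1 for arm by time. Arms were paired by name. Alternatives used DESeq2 1.42.0, limma 3.58.1 (pseudocount 0.5 or 5), other scalings and filters, a replicate block and each library left out. Exact permutation tests used scipy 1.17.1. The procedure was tested on simulated data, and the outcome is not reported here. Named were the 6 arms, miRNAs sharing a seed, the 5 most alike, the top miRNA, 3 hairpins per direction, and of the targets 5 fixed names and 10 by adjusted p. Members, lists and tests were chosen with earlier results of these data known.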

Additional observations from a re-analysis of the deposited data

How the results depend on the processing

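The directions and calls of mmu-miR-182-5p, mmu-miR-96-5p and the 3 hairpin ratios held under every alternative tried. The count of miRNAs past the threshold, 256, ran from 154 to 399 and that of hairpins, 62, from 33 to 118 when 1 library was left out, each highest without serum replicate 2 and lowest without 4-day replicate 2 (for miRNAs also without 4-day replicate 3); the cause was not tested. Leaving out 1 library moved mmu-miR-182-3p between -0.52 and -0.33, mmu-miR-96-3p between -0.91 and -0.56, mmu-miR-183-5p between 0.66 and 1.12 and mmu-miR-183-3p between 0.43 and 0.99. With library totals alone the median of all miRNAs was -0.385, against -0.112, with 88 higher and 193 lower against 140 and 116, and mmu-miR-182-3p stood at -0.74 and mmu-miR-183-5p at 0.67. Scaling by the reads of 2 names that are not mouse, chosen after seeing the data, put the median at 0.619, with 243 higher and 19 lower, while mmu-miR-182-3p turned to 0.26 and mmu-miR-96-3p came to -0.033. The call of mmu-miR-96-3p was also lost in the replicate block fit (-0.71) and when low counts were kept (-0.72). The block gave 196 miRNAs, 48 hairpins and 19 targets; same-numbered small RNA libraries deviated together with correlations of 0.0106, 0.0591 and -0.42, so the numbers were not taken as pairs. The cluster's share of reads was higher at 4 days by 2.25 percentage points, by 1.68 of all reads with unassigned ones, and by 2.43 of reads outside the cluster. Without 4-day replicate 1, Mitf turned to 0.16, and leaving out 1 library moved it between -0.88 and 0.16. With library totals alone the targets' median was 0.335, against 0.193 for all genes. The 40 to 240 reads of each passenger per library limit what can be said of them.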

Other observations

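Each small RNA library also held reads under 2 names that are not mouse, dme-miR-14-5p and xtr-miR-427, and the labels do not say what they are. They made up 0.157, 0.202 and 0.212% of miRNA reads at 4 days, against 0.327, 0.507 and 0.343% in serum. Per read of these names there were 30.3, 22.1 and 21.3 reads of mmu-miR-182-5p at 4 days, against 7.78, 4.95 and 6.87 in serum. Per 100 of them there were 3.06, 2.64 and 2.03 reads of mmu-miR-182-3p at 4 days, against 2.6, 1.48 and 2.37 in serum.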
